A study of Mus musculus with 5 samples.

Results

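Interferon-stimulated genes were followed through a series of differentiating mouse epiblast stem cells (EpiSCs, pluripotent cells taken from the epiblast after implantation). The set holds 33 genes, named one by one with earlier results of these data in view, of the 32285 genes counted in each library. A wild-type 129 EpiSC line, kept without feeder cells, was differentiated for 3 days in N2B27 medium with 1 µM of the Wnt agonist Chi and 8 ng/ml BMP4 in every condition. The exogenous FGF2 dose was 0, 0.75, 3 or 12 ng/ml, and a further culture received 30 nM AZD4547, an inhibitor of the FGF receptors (FGFRi), with no FGF2 dose stated. Each condition is 1 culture and 1 single-cell RNA library, so no test between conditions was possible. Intervals of levels, ratios and shares below are 95% intervals of counting error only, and the interval of a median describes the spread between genes. None of them holds anything of the spread between cultures.

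Interferons are secreted proteins that cells release when they sense viral nucleic acid. Type I interferons bind the receptor pair Ifnar1 and Ifnar2, the kinases Jak1 and Tyk2 phosphorylate Stat2, which acts with Irf9 in a complex that binds the interferon-stimulated response element (ISRE) of target genes. Type II interferon acts through Ifngr1 and Ifngr2 on genes that carry a gamma-activated site (GAS). Pluripotent stem cells are known to respond weakly to interferon and to keep some of these genes, the Ifitm genes among them, at a basal level without it.

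Cells were kept where at least 2500 genes were detected and at most 10% of their unique molecular identifiers (UMIs) were mitochondrial, which left 10653 of 15375 barcodes, with 1701 cells in the FGFRi library and 1696, 2725, 2125 and 2406 cells along the FGF2 doses. The kept cells of a library held between 47824660 and 81538748 UMIs, with medians of 24408 to 29661.5 UMIs per cell, and 7 barcode sequences were found in more than 1 library. Levels are UMIs of a gene per 1000000 UMIs of all kept cells (CPM), so that fewer expressing cells and less RNA per cell cannot be told apart in them. Doublets were not removed. Of 10 markers of blood cells, which could supply these transcripts, Ptprc, Tyrobp, C1qa and Adgre1 had between 0 and 2 UMIs in any library. Whether annotation left Adgre1 at 0 UMIs throughout was not tested. Fcer1g, Csf1r, Laptm5 and Lyz2 had means over the 5 libraries of 0.325, 0.204, 0.153 and 0.0562 CPM. The summed level of these 10 markers, mostly Cd74 and Cd68, was 21.2 CPM with FGFRi and 11.4, 9.49, 6.11 and 6.17 CPM along the doses. Whether blood cells supplied any of the transcripts was not tested.

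The DNA around the start of these genes was searched for the ISRE and the GAS described above. A promoter of 250 bases before to 50 after the start was listed by RefSeq (GRCm38.p6) for 27 of the 33 genes. The core of the ISRE, searched as the letters GAAA, any pair of bases and GAAA again, was found on either strand in 14 of these 27 (51.9%), against 3.99% of 27025 genes in the table. The letters TTCNNNGAA, the core of the GAS, read the same on both strands and were found in 9 of the 27 (33.3%), against 9.55% of all genes. Both were present in 5 and neither in 9. The 120 bases before the start of 5 genes follow, 5′ to 3′ on the strand of the gene, with the letters that match either core in capitals.
Isg15, chr4:156200819-156200938, minus strand: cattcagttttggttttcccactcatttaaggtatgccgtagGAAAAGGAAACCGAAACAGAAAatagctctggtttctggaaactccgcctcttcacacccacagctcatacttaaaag
Igtp, chr11:58199436-58199555, plus strand: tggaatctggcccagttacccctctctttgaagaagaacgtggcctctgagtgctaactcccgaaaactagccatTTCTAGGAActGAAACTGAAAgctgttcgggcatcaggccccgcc
Ifit1, chr19:34640769-34640888, plus strand: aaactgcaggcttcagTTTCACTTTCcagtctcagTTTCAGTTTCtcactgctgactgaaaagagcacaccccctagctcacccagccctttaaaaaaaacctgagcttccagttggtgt
Irgm1, chr11:48871421-48871540, minus strand: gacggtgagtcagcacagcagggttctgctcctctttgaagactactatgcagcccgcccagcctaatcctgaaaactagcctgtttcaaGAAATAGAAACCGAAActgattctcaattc
Oasl2, chr5:114896814-114896933, plus strand: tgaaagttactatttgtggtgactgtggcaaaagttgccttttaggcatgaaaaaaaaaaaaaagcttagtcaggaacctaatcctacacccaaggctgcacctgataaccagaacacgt
Isg15, the ubiquitin-like modifier, held 3 overlapping ISRE cores, which began 78, 72 and 66 bases before its start. In Ifit1 the cores began 104 and 85 bases upstream, and in Irgm1 they overlapped 30 and 24 bases upstream. Igtp held a GAS core 45 bases and an ISRE core 34 bases before its start. Oasl2 is shown as a gene whose promoter window held neither core, although its level was 2.88-fold higher at 12 than at 0 ng/ml FGF2. For Rnf213 and Stat2 the bases after the listed start were not found in a GENCODE transcript of the gene, so that their windows may not lie at the start in use. A match describes letters in this window, and binding was not measured.

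From 0 to 12 ng/ml FGF2 the genes of the set were mostly higher. The level at 12 ng/ml lay above that at 0 ng/ml for 31 of the 33 genes, and the counting interval of the ratio lay above 1 for 27 of 32 genes with UMIs in both libraries and below 1 for 0. With a mean of at least 5 CPM over the 5 libraries, 15 genes were well enough counted to be set beside all 9741 genes with that mean. The level was higher at 12 ng/ml for 14 of the 15 (51.3% of all genes), and the interval lay above 1 for 12 (37.2% of all genes) and below 1 for 0 (35.8%). By a rule of size, 6 of the 15 were at least 2-fold higher at 12 than at 0 ng/ml (Isg15, Rnf213, Irf1, Irgm1, Parp9 and Dtx3l). Of all 9741 genes with that mean, 1.76% were higher by this rule, and 4.54% were lower, against 0 of the 15. The median difference of log2(CPM + 1) over the 15 genes was 0.89 (interval of the median from the spread between these genes, 0.26 to 1.11), and it was 0.01 over all 9741 genes. Irgm1 was just inside the 2-fold limit, with a ratio of 2.05, and Ifitm1 just outside, with 1.91. Since the genes were named with these libraries in view, their shares describe the set and are no test of it.

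The level was higher at each of the 3 dose steps for 19 of the 33 genes (10 of the 15 above 5 CPM), whereas 16.2% of all 9741 genes were higher at each step. The highest of the 5 libraries was that at 12 ng/ml for 25 genes (12 of the 15, against 22.2% of all genes), the library at 3 ng/ml for Oas1a, Zbp1, Dtx3l and Samd9l, and the FGFRi library for Stat2, Eif2ak2, Rsad2 and Trim25.

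**Figure D1:**
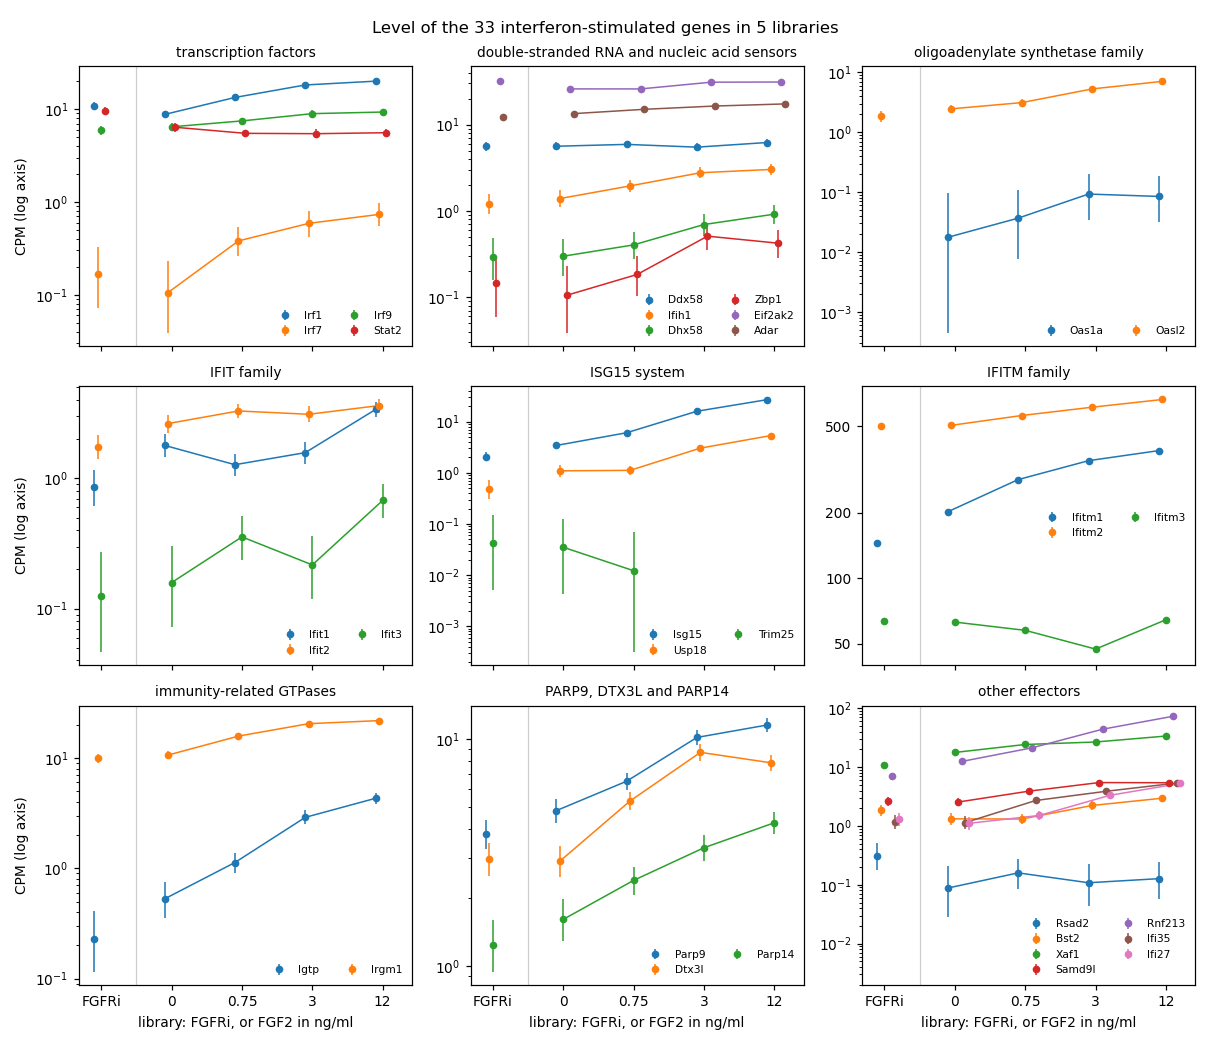
Level in CPM on a log axis of each of the 33 genes, grouped by role, in the FGFRi library and at 0, 0.75, 3 and 12 ng/ml FGF2; points are 1 library each, bars are 95% counting intervals, and libraries at 0 UMIs have no point. Most lines climb from 0 to 12 ng/ml, most steeply Igtp, Isg15, Irf7 and Rnf213, while Stat2, Ddx58 and Ifitm3 stay near level.

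In the ISG15 system, Isg15 and Usp18 differed widely between doses and Trim25 was barely detected. Isg15, which is joined to other proteins as a tag, stood at 2.05 CPM with FGFRi and at 3.41, 6.05, 15.9 and 26.8 CPM at 0, 0.75, 3 and 12 ng/ml FGF2. No neighboring pair of these libraries had overlapping intervals, and the ratio of 12 to 0 ng/ml was 7.85 (6.77 to 9.15). Usp18, which removes Isg15 from proteins and dampens receptor signaling, was at 0.481 CPM with FGFRi and at 1.09, 1.12, 3.03 and 5.33 CPM along the doses. The library at 0.75 ng/ml did not differ from that at 0 ng/ml for Usp18 beyond counting error, and the ratio of 12 to 0 ng/ml was 4.88 (3.72 to 6.49). Trim25, a ubiquitin ligase that activates the RNA sensor Ddx58, was all but absent, with 2, 2, 1, 0 and 0 UMIs in the libraries from FGFRi to 12 ng/ml.

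Among the transcription factors, Irf1 and Irf7 differed more between 0 and 12 ng/ml than Irf9 and Stat2, the members of the type I complex. Irf1, which is itself induced through a GAS and activates many genes of the set, was at 10.9 CPM with FGFRi and at 8.78, 13.4, 18.3 and 20.1 CPM along the doses. It was thus lower at 0 ng/ml than with FGFRi and 2.29-fold higher at 12 than at 0 ng/ml (2.06 to 2.54). Irf7, the factor that amplifies interferon production, had 8 UMIs with FGFRi and 6, 31, 38 and 52 UMIs along the doses. Irf9 was at 5.94 CPM with FGFRi and at 6.46, 7.48, 8.96 and 9.33 CPM along the doses, a ratio of 1.44 from 0 to 12 ng/ml. Stat2, its partner in the complex, was highest with FGFRi and near level at the upper doses, with 9.6 CPM under FGFRi and 6.39, 5.49, 5.45 and 5.58 CPM along the doses. Its interval from 0 to 12 ng/ml held 1 (ratio 0.873, 0.756 to 1.01), while that from FGFRi to 0 ng/ml did not (0.666, 0.579 to 0.766).

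The sensors of foreign nucleic acid split in the same manner. Ddx58 (RIG-I), which detects viral RNA ends, was at 5.6 CPM with FGFRi and at 5.62, 5.9, 5.48 and 6.2 CPM along the doses, and no pair of neighboring libraries differed beyond counting error. Ifih1 (MDA5), which detects long double-stranded RNA, was at 1.21 CPM with FGFRi and at 1.39, 1.95, 2.77 and 3.02 CPM along the doses. The related Dhx58 (LGP2) had 14 UMIs with FGFRi and 17, 33, 45 and 65 along the doses. Zbp1, which recognizes Z-form nucleic acid, had between 6 and 33 UMIs in a library. Eif2ak2 (PKR), the kinase that halts translation on double-stranded RNA, was at 32 CPM with FGFRi and at 25.9, 25.9, 31 and 31.1 CPM along the doses. Adar, which edits adenosine in double-stranded RNA, was at 12.2 CPM with FGFRi and at 13.4, 15, 16.4 and 17.4 CPM along the doses. From 0 to 12 ng/ml the ratio was 2.17 for Ifih1 and 3.07 for Dhx58, but 1.20 for Eif2ak2 and 1.30 for Adar.

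In the oligoadenylate synthetase family, which makes the second messenger that activates RNase L, Oas1a had 0, 1, 3, 6 and 6 UMIs in the libraries from FGFRi to 12 ng/ml. Oasl2, a relative that acts on RNA sensing, was at 1.86 CPM with FGFRi and at 2.46, 3.13, 5.29 and 7.09 CPM along the doses, a ratio of 2.88 from 0 to 12 ng/ml (2.38 to 3.50). The Ifit genes, whose proteins bind viral RNA caps and ends, lie side by side on chromosome 19 but did not share a pattern. Ifit1 was at 0.857 CPM with FGFRi and at 1.80, 1.28, 1.58 and 3.39 CPM along the doses, so that the level at 12 ng/ml stood apart from the 4 others. At 12 ng/ml 59.6% of Ifit1 UMIs came from the richest 1% of cells, with up to 27 in a cell. Counting intervals do not take this into account. The share of cells with an Ifit1 UMI was 1.53% with FGFRi and 3.07%, 1.43%, 2.87% and 4.11% along the doses. Its interval at 12 ng/ml (3.36 to 4.99%) overlapped those at 0 and 3 ng/ml. Ifit3 had 6 UMIs with FGFRi and 9, 29, 14 and 48 along the doses. Ifit2 was at 1.76 CPM with FGFRi and at 2.64, 3.30, 3.11 and 3.63 CPM along the doses, and neither step above 0.75 ng/ml was beyond counting error.

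The 3 Ifitm genes, neighbors on chromosome 7 that encode membrane proteins which block viral entry, made up most UMIs of the set. The summed level of all 33 genes was 838 CPM with FGFRi and 1432 CPM at 12 ng/ml, and without the Ifitm genes it was 129 and 317 CPM. Ifitm1 was at 145 CPM with FGFRi and at 202, 284, 347 and 386 CPM along the doses. Ifitm2 was at 501 CPM with FGFRi and at 505, 560, 612 and 664 CPM along the doses. Ifitm3 had no such order, with 63.3 CPM under FGFRi and 62.8, 57.6, 47.2 and 64.4 CPM along the doses. The libraries at 0 and 12 ng/ml did not differ for Ifitm3 beyond counting error (ratio 1.03, 0.981 to 1.07), and that at 3 ng/ml was the lowest. These genes are close in sequence, and reads shared between them could have been left uncounted.

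Both immunity-related GTPases, of a family that acts against intracellular pathogens, were higher with dose. Igtp had the largest ratio of the set from 0 to 12 ng/ml, 8.16 (5.60 to 12.3), from 30 to 305 UMIs, with 92 and 187 UMIs at 0.75 and 3 ng/ml and 11 with FGFRi. Irgm1 was at 9.95 CPM with FGFRi and at 10.6, 15.8, 20.4 and 21.8 CPM along the doses. The step from 3 to 12 ng/ml was within counting error for Irgm1 (1.07, 0.989 to 1.15) but not for Igtp (1.49, 1.24 to 1.80).

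Parp9 and Dtx3l, which form a complex of an ADP-ribosyltransferase and a ubiquitin ligase, overlap head to head on chromosome 16, where Parp9 begins at 35938470 on the plus strand and Dtx3l begins at 35939151 on the minus strand (GRCm38). Parp9 was at 3.81 CPM with FGFRi and at 4.82, 6.50, 10.1 and 11.5 CPM along the doses. Dtx3l was at 2.95 CPM with FGFRi and at 2.89, 5.32, 8.71 and 7.84 CPM along the doses, with its highest level at 3 ng/ml. The nearby Parp14, which also modifies proteins with ADP-ribose, was at 1.23 CPM with FGFRi and at 1.60, 2.38, 3.31 and 4.27 CPM along the doses. The ratios from 0 to 12 ng/ml were close in all 3, at 2.38, 2.72 and 2.66.

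Rnf213, a very large ubiquitin ligase that coats intracellular bacteria, had the widest difference of any well-counted gene after Isg15. It was at 7.15 CPM with FGFRi and at 12.5, 21.3, 44.1 and 73.1 CPM along the doses, and no pair of neighboring libraries overlapped. The ratio of 12 to 0 ng/ml was 5.85 (5.41 to 6.34). Xaf1, which opposes the caspase inhibitor Xiap, was at 10.9 CPM with FGFRi and at 17.8, 24.3, 26.7 and 33.7 CPM along the doses. Ifi35 was at 1.17 CPM with FGFRi and at 1.14, 2.71, 3.89 and 5.35 CPM along the doses. Ifi27 was at 1.32 CPM with FGFRi and at 1.11, 1.51, 3.31 and 5.27 CPM along the doses. These last genes differed by 4.68-fold and 4.75-fold between 0 and 12 ng/ml, against 1.90-fold for Xaf1. Samd9l, a restriction factor of poxviruses, was at 2.66 CPM with FGFRi and at 2.55, 3.90, 5.46 and 5.43 CPM along the doses. Bst2 (tetherin), which holds budding virions at the membrane, was at 1.86 CPM with FGFRi and at 1.32, 1.31, 2.23 and 2.97 CPM along the doses. Rsad2 (viperin), among the most strongly induced genes in a classical interferon response, had 15 UMIs with FGFRi and 5, 13, 7 and 9 along the doses.

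**Figure D2:**
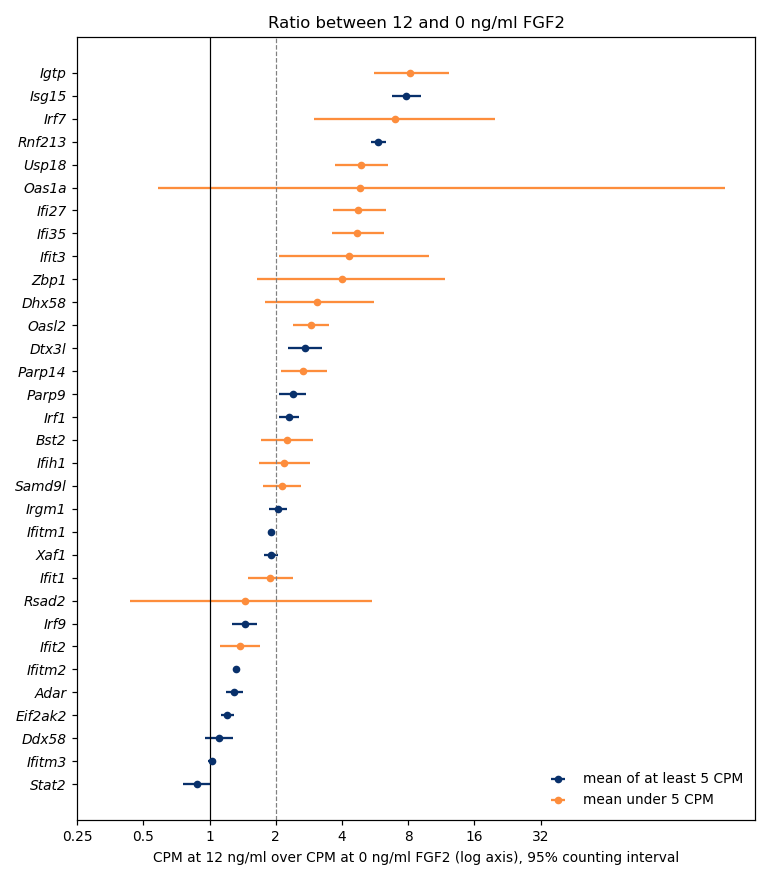
Level at the highest FGF2 dose (12 ng/ml) divided by that without FGF2 (0 ng/ml), both in CPM and drawn on a log axis, for the 32 genes with UMIs in both libraries; bars are 95% counting intervals, the solid line marks 1 and the dashed line 2. Isg15 and Rnf213 lie far above 2 with narrow intervals, Irgm1 and Ifitm1 flank the limit, and Oas1a and Rsad2 rest on too few UMIs to be placed.

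Neighboring libraries were also compared step by step. Between FGFRi and 0 ng/ml FGF2, 0 of the 15 well-counted genes differed by 2-fold, against 3.41% of all genes higher and 4.13% lower at 0 ng/ml. Over all 33 genes, the intervals of 10 lay above 1, led by Igtp, Usp18 and Ifit1 (ratios of 2.30, 2.27 and 2.09), and those of 5 lay below 1, namely Rsad2, Stat2, Bst2, Eif2ak2 and Irf1. For Rsad2, 10 of the 15 UMIs with FGFRi came from 1 cell, which the counting interval does not take into account. Of the 15 genes, 5 intervals lay above and 3 below (41.7% and 37.8% of all genes). From 0 to 0.75 ng/ml, 0 of the 15 genes passed 2-fold (0.4% of all genes higher and 1.7% lower), and of the 33 genes 20 intervals lay above 1 and 3 below, those of Stat2, Ifit1 and Ifitm3. Of the 15 genes, 11 lay above and 2 below (29.4% and 31% of all genes). From 0.75 to 3 ng/ml, Isg15 (2.63) and Rnf213 (2.07) passed, against 0.359% of all genes higher and 1.01% lower, and of the 33 genes 23 intervals lay above 1 and 1 below, that of Ifitm3. Of the 15 genes, 12 lay above and 1 below (28.7% and 24.8% of all genes). From 3 to 12 ng/ml, 0 of the 15 genes passed (0.0616% of all genes higher and 0.113% lower), and of the 33 genes 17 intervals lay above 1 and 0 below. Of the 15 genes, 8 lay above and 0 below (19.5% and 19% of all genes). With the limit lowered to a ratio of 1.5, 3 of the 15 genes were higher and 1 lower at 0 ng/ml than with FGFRi (10.8% and 10.7% of all genes). At this limit 4, 4 and 2 genes were higher at the 3 dose steps in turn (1.66%, 1.23% and 0.719% of all genes), and 0 were lower (4.61%, 3.25% and 0.678%). From 0 to 12 ng/ml it was passed upward by 8 genes and downward by 0, against 4.25% and 9.56% of all genes. The 15 genes had median differences of log2(CPM + 1) of 0.08, 0.37, 0.25 and 0.13 over the 4 comparisons, where neighboring comparisons share a library.

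The interferon genes and their receptors did not follow the set. Of 21 interferon genes, 20 had 0 UMIs in all 5 libraries, which allows a level of up to 0.0368 to 0.0627 CPM for each at 3 counts, and Ifnk, a type I interferon of skin, had 3 UMIs at 0.75 ng/ml and 0 elsewhere. This limit covers counting only. Reads shared between interferon genes of close sequence could have been left uncounted. The receptors were transcribed in every library, and those of type I and type II interferon were highest with FGFRi. Ifnar1 was at 29.2 CPM with FGFRi and between 22.1 and 23.7 CPM along the doses, and Ifnar2 was at 26.2 CPM with FGFRi and between 11.9 and 17.4 CPM. Ifngr1 was at 15.2 CPM with FGFRi and between 6.48 and 8.70 CPM along the doses, while Ifngr2 was at 35.1 CPM with FGFRi and between 15.0 and 21.2 CPM. The chains Ifnlr1 and Il10rb of the type III receptor stood at 0.551 to 1.85 CPM and 2.07 to 5.75 CPM, with Ifnlr1 highest at 0 ng/ml. Jak1, the kinase shared by these receptors, was at 101 CPM with FGFRi and at 69.3, 56.6, 48.1 and 45.4 CPM along the doses.

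Mavs, the adaptor of the RNA sensors, was between 2.57 and 4.42 CPM, and Irf3, the factor it activates, between 13.4 and 16.5 CPM. Socs1, a feedback inhibitor of Jak kinases that interferon induces, was at 11.9 CPM with FGFRi and between 6.10 and 8.08 CPM along the doses. Of all 47 pathway genes, 16 were above 5 CPM, and 2 of these 16 were higher at each dose step (Ptpn6 and Samhd1). This share was near the 16.2% of all 9741 genes, and 10 of the 15 members above 5 CPM were higher at each step.

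A list of 47 further interferon-stimulated genes, drawn up with the same knowledge of these data, was mixed. The level was higher at each dose step for 17 of the 47, 21 were highest at 12 ng/ml, and 13 were highest with FGFRi. Only 7 of the 47 were above 5 CPM, and 4 had no UMI in any library. Of these 7 genes, 2 were higher at each dose step (16.2% of all 9741 genes) and 2 were highest at 12 ng/ml (22.2%). The FGFRi library was the highest for 4 of them. The 5 best-counted genes of that list did not share an order. Ifi30, a thiol reductase of antigen processing, was at 76.3 CPM with FGFRi and at 46.6, 36.5, 28.9 and 30.8 CPM along the doses. Daxx, a histone chaperone, was at 22.4 CPM with FGFRi and between 30.6 and 35.7 CPM along the doses. The GTPase Gbp2 was at 37.0 CPM with FGFRi and at 16.7, 14.5, 16.6 and 21.0 CPM along the doses. Pml was at 8.97 CPM with FGFRi and at 10.6, 14.0, 16.8 and 15.6 CPM, and Trafd1 at 21.8 CPM with FGFRi and at 12.1, 9.16, 7.77 and 8.51 CPM. In the immunoproteasome and MHC class I list, Psmb8, the immunoproteasome subunit that replaces a constitutive one, was at 1.21 CPM with FGFRi and at 3.19, 11.6, 19.6 and 24.5 CPM along the doses. B2m, the light chain of MHC class I, had no such order, at 114 CPM with FGFRi and between 52.1 and 63.1 CPM along the doses.

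Whether the genes were found in the same cells was asked within each library, after every cell was thinned at random to 10000 UMIs. This left out between 9 and 39 shallower cells per library. Isg15 had a UMI in 25 of 1662 cells with FGFRi and in 2.32%, 3.70%, 8.79% and 12.0% of cells along the doses (3.94% and 5.90%, 8.48%, 17.8% and 23.2% without thinning). The corresponding shares for Rnf213 were 7.28% with FGFRi and 7.62%, 13.9%, 25.6% and 39.0% along the doses. What share free RNA alone would give was not measured.

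The number of the 33 genes detected in a cell varied more between cells than independent genes would give. The variance was 1.21 times that of independent genes with FGFRi and 1.54, 1.80, 2.11 and 2.20 times along the doses. The mean number detected was 2.91 with FGFRi and 3.04, 3.37, 3.87 and 4.23 along the doses. Thinned to 5000 UMIs, where fewer were detected, the ratio at 12 ng/ml was 1.74. Ratios of libraries with unlike numbers detected therefore cannot be ranked as stronger or weaker co-variation. For comparison, the ratio was between 1.37 and 1.88 for immunoproteasome and MHC class I genes, between 1.69 and 2.66 for p53 targets, which had their highest value with FGFRi, and between 5.04 and 9.40 for genes of the G2 and M phases. A core of 13 genes best known as type I targets held Isg15, Usp18, Rsad2, Ifit1, Ifit2, Ifit3, Oasl2, Oas1a, Irf7, Bst2, Xaf1, Zbp1 and Dhx58. At least 3 of the core were detected in 2 of 1662 cells with FGFRi (0.120%, exact binomial interval 0.0146 to 0.434%) and in 0.476%, 0.739%, 1.80% and 2.67% of cells along the doses. At 12 ng/ml this was 64 of 2397 cells (2.06 to 3.40%). Independent genes of the same single shares would give 0.0144% with FGFRi and 0.0476%, 0.0745%, 0.277% and 0.623% along the doses. The observed share was thus 8.35 times the independent one with FGFRi and 10.0, 9.92, 6.49 and 4.29 times along the doses. With FGFRi this rests on 2 cells and at 0 ng/ml on 8. Thinned to 5000 UMIs, the share was 16.4 times the independent one with FGFRi and 29.9, 15.3, 11.9 and 7.85 times along the doses. These ratios move with depth and cannot be ranked between libraries. Up to 7 core genes were found in 1 cell, while 68.5% of cells at 12 ng/ml had none.

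**Figure D3:**
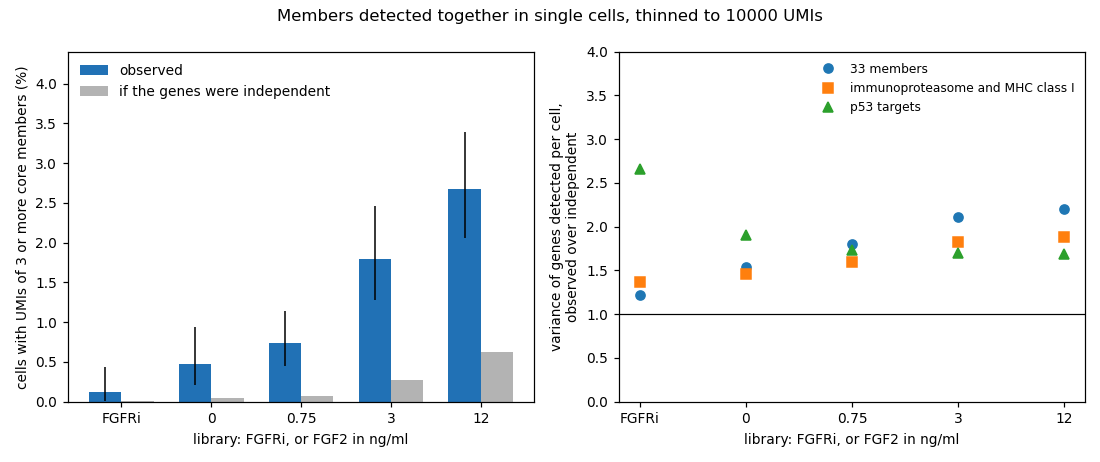
Left, share of cells (%) with UMIs of 3 or more of the 13 core genes in each library, observed (blue, bars are exact binomial 95% intervals) and for independent genes (gray); right, variance of the number of genes detected per cell over that of independent genes (line at 1) for 3 lists. The observed share is above the independent one in each library, from 0.120% with FGFRi to 2.67% at 12 ng/ml, and the variance ratio of the 33 genes runs from 1.21 to 2.20.

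Pairs of the set were found together more often than pairs of other genes. Among genes detected in 2% to 50% of cells, the median pair of any genes was seen together 1.00 to 1.01 times as often as independent genes would be in each library. A pair of the set entered a library only where both genes were detected that often, which gave 78 pairs with FGFRi and 105, 153, 253 and 276 along the doses, so that medians of the libraries cover different pairs. These medians were 1.10 with FGFRi and 1.11, 1.41, 1.56 and 1.56 along the doses. Over the 78 pairs of 13 genes that entered all 5 libraries, the medians were 1.10 with FGFRi and 1.10, 1.30, 1.16 and 1.18 along the doses, with no order by dose. At 12 ng/ml, 144 of 276 pairs (52.2%) were together at least 1.5 times as often, against 2.81% of all pairs, which were not matched to them by share of cells. Many of the 276 pairs entered only at the higher doses. Of the 78 pairs that entered all 5 libraries, 17 were together that often with FGFRi and 11, 19, 14 and 13 along the doses. The share of all pairs was 3.85% with FGFRi and 3.78%, 2.47%, 3.05% and 2.81% along the doses. The 13 genes of these 78 pairs leave out Isg15, Oasl2, Usp18, Igtp, Ifit1 and Ifi35, each found in under 2% of cells with FGFRi. The lack of order by dose therefore does not cover them. Parp9 and Dtx3l, the overlapping neighbors, had the highest median over the libraries of the pairs that could be followed in all 5, at 2.81 (range 2.18 to 3.87). At 12 ng/ml Isg15 was found with Ifit1 5.11 times, with Oasl2 4.53 times and with Usp18 4.42 times as often as independent genes would be, but with Rnf213 1.04 times, in 116 cells.

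The set held genes that varied together and genes that did not. For each gene the Pearson correlation over cells between its UMIs and the number of other members detected was taken as a description, since cells of 1 library share their depth and origin. Isg15 had the highest mean over the libraries, with values of 0.18 with FGFRi and 0.21, 0.35, 0.45 and 0.46 along the doses. Oasl2 followed at 0.06 with FGFRi and 0.26, 0.38, 0.40 and 0.40, above Isg15 at 0 and 0.75 ng/ml, and Irf1 was at 0.05 with FGFRi and 0.12, 0.29, 0.33 and 0.35. Usp18, Ifi35, Ifitm3, Igtp and Ifit1 reached between 0.31 and 0.34 at 12 ng/ml. In contrast, Rnf213 lay between 0.01 and 0.05, Xaf1 between -0.01 and 0.07, Ifit2 between -0.01 and 0.02 and Dhx58 between -0.04 and 0.04. Of 9720 other genes above 5 CPM, the 95th percentile was 0.05 to 0.07 in each library, and these 4 genes were under it in every library. Ifit2 and Dhx58 were themselves below 5 CPM. After thinning, Dhx58 had a UMI in only 5 cells with FGFRi and in 5, 11, 11 and 27 along the doses. Its low correlation thus rests on few cells.

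Xaf1 and Rnf213 also differed from each other in how their UMIs were spread. With FGFRi, 73.5% of Xaf1 UMIs came from the richest 1% of cells, and at 12 ng/ml 30.0% did, with up to 59 UMIs in a single cell of the library at 0.75 ng/ml. For Rnf213 the share in the richest 1% of cells was 22.3% at 0 ng/ml and 7.90% at 12 ng/ml, so that its UMIs were spread over more cells at the higher dose. For Isg15 it was 49.5% at 0 ng/ml and 32.3% at 12 ng/ml.

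**Figure D4:**
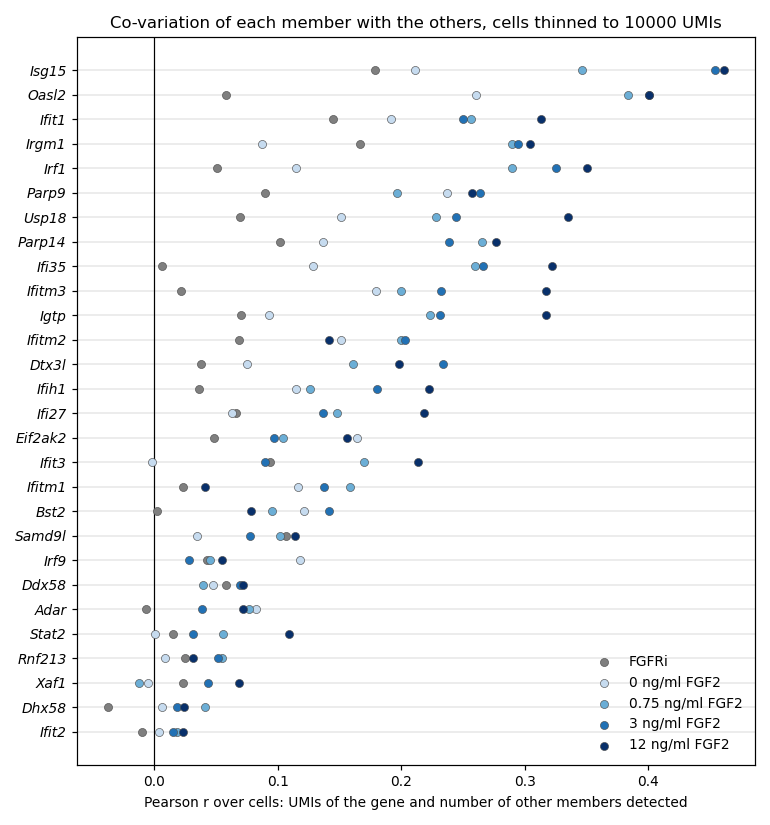
Pearson r over cells between the thinned UMIs of each gene and the number of other members detected in the same cell, for the 28 genes with a value in all 5 libraries (colors); genes are ordered by their mean. Isg15 and Oasl2 lead, with values of 0.40 or more at 3 and 12 ng/ml, and Rnf213, Xaf1, Dhx58 and Ifit2 lie near 0.

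The cells in which the genes were found were described by single-gene gates. T (brachyury), the transcription factor of the primitive streak, had a UMI in 22 of 1701 cells with FGFRi and in 417 of 1696, 1291 of 2725, 1583 of 2125 and 1977 of 2406 cells along the doses. In cells with a T UMI, the 30 genes other than Ifitm summed to 171, 229, 284 and 344 CPM from 0 to 12 ng/ml, and in cells without one to 125, 127, 146 and 189 CPM. Isg15 was at 5.68, 10.3, 20.1 and 30.9 CPM in cells with a T UMI and at 2.64, 1.89, 2.88 and 6.71 CPM in cells without. Both classes of cells thus held more of this sum and of Isg15 at 12 than at 0 ng/ml. A sum can be led by single genes, and the part of Rnf213 is given below. The share of cells with a T UMI moved with the dose as well. With FGFRi, Isg15 was at 16.6 CPM in the cells with a T UMI, but these 13 UMIs came from only 22 cells.

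Cells were next divided by the number of T UMIs after thinning, a division chosen after the data were seen. At 12 ng/ml, Isg15 was at 5.90 CPM in cells with 0 T UMIs and at 17.1, 39.2 and 77.8 CPM in cells with 1 to 2, 3 to 5 and 6 or more. The same order was found at 3 ng/ml (5.48, 9.74, 22.4 and 40.5 CPM) and at 0.75 ng/ml (2.01, 6.05, 22.0 and 44.3 CPM). Irf1 at 12 ng/ml was at 6.02, 15.1, 28.9 and 52.7 CPM in these classes, and in cells with 0 T UMIs it was lower at 12 than at 0 ng/ml, where it was at 8.48 CPM. Rnf213 did not have this order at 12 ng/ml, with 74.5, 91.5, 54.4 and 39.3 CPM. At the lower doses it was higher in cells with 1 to 2 T UMIs than in cells with 0. Its level in cells with 1 to 2 was 35.5, 33.3 and 67.5 CPM at 0, 0.75 and 3 ng/ml. At no dose was Rnf213 higher in cells with more T UMIs than in cells with 1 to 2. In the cells with 0 T UMIs its level was 6.95 CPM at 0 ng/ml and 14.7, 33.4 and 74.5 CPM at 0.75, 3 and 12 ng/ml. Xaf1 at 12 ng/ml was at 27.4 CPM (24.0 to 31.2) in cells with 0 T UMIs and at 37.7 CPM (33.7 to 42.0) with 1 to 2. It was not higher in cells with more T UMIs, at 33.2 and 37.7 CPM. At 0.75 ng/ml Xaf1 was at 20.5, 32.2, 23.9 and 26.1 CPM in these classes, and at 3 ng/ml at 26.0, 27.2, 22.1 and 26.1 CPM. At 0 ng/ml it was at 16.6, 22.0, 58.8 and 33.3 CPM, with 34 and 6 cells in the upper classes.

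**Figure D5:**
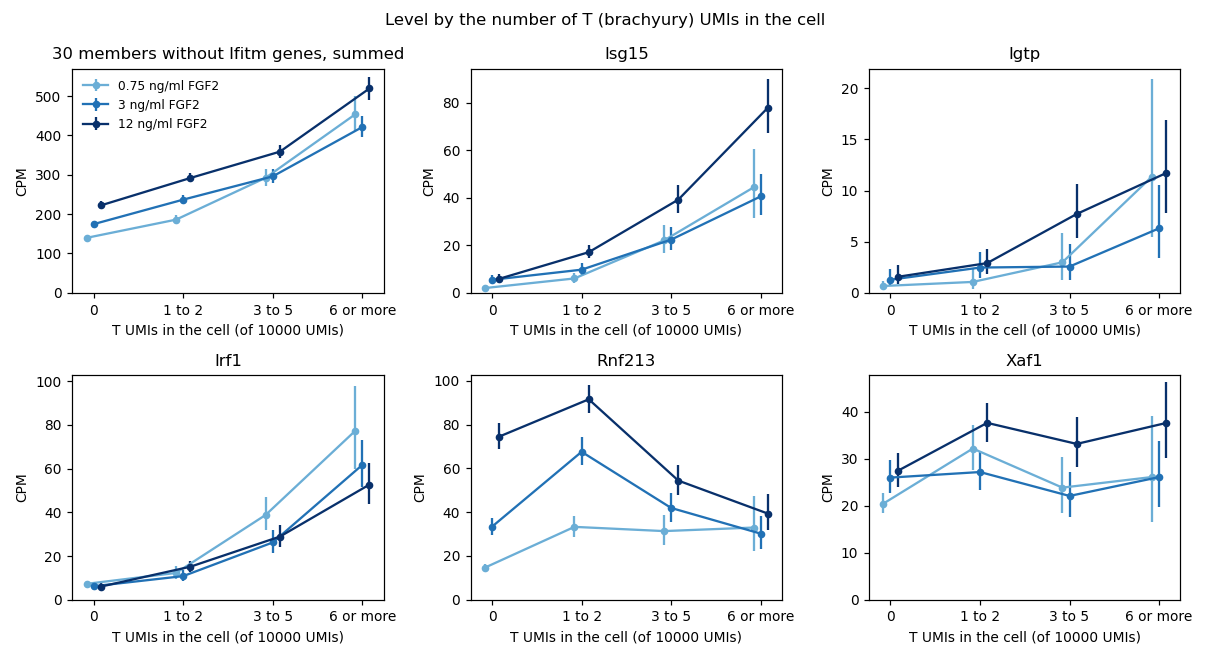
CPM of 30 genes summed and of 5 genes (linear axes from 0) in cells with 0, 1 to 2, 3 to 5 and 6 or more T UMIs of 10000, in the libraries at 0.75, 3 and 12 ng/ml FGF2; bars are 95% counting intervals. Isg15, Igtp and Irf1 are highest in cells with most T UMIs in each library, whereas Rnf213 at 3 and 12 ng/ml is highest in cells with 1 to 2. Rnf213 is separated by dose in cells with 0 and with 1 to 2 T UMIs, but not in cells with 6 or more.

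Cells with UMIs of both Cdh1 (E-cadherin, of epithelia) and Cdh2 (N-cadherin, of mesoderm) held the most Isg15. At 12 ng/ml Isg15 was at 62.1 CPM in 532 cells with both, at 16.7 CPM in 340 cells with Cdh1 only, at 14.5 CPM in 1412 cells with Cdh2 only and at 12.0 CPM in 122 cells with neither. At 3 ng/ml these levels were 34.4, 7.43, 10.9 and 9.11 CPM. At 0 ng/ml, in contrast, Isg15 was at 3.60, 4.23, 2.52 and 0 CPM. Rnf213 was highest in cells with Cdh2 only at each FGF2 dose, at 30.1, 39.5, 68.5 and 108 CPM from 0 to 12 ng/ml, against 5.25, 6.19, 6.96 and 12.1 CPM in cells with Cdh1 only. Ifitm1 was likewise highest in cells with Cdh2 only in all 5 libraries, from 259 CPM with FGFRi to 483 CPM at 12 ng/ml. A droplet that caught a pair of cells would also be counted as having both cadherins, and cells with both were deeper, with a median of 31273 UMIs against 26675 in cells with Cdh2 only at 12 ng/ml. The part of such doublets in these levels was not tested.

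Within cells with a T UMI, the 30 genes other than Ifitm still varied together, with 1.62, 1.97, 2.17 and 2.30 times the variance of independent genes from 0 to 12 ng/ml. In cells without a T UMI this was 1.39, 1.39, 1.18 and 1.22. The mean number detected at 12 ng/ml was 2.23 in cells with a T UMI and 1.35 in cells without, so these ratios do not compare like with like. At 12 ng/ml, 63 of the 64 cells with at least 3 core genes had a T UMI (3.20% of 1971 thinned cells, against 1 of 426, or 0.235%).

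Genes outside the set were ranked by the mean over the libraries of the same correlation. The 10 highest were Psme2 (0.33), Psmb8 (0.30), Psme1 (0.29), Gbp2 (0.27), Psmb10 (0.27), Sprr2a3 (0.26), Gbp2b (0.25), Igfbp3 (0.25), Tapbp (0.25) and T (0.25). Psmb8 and Psmb10 are subunits of the immunoproteasome, Psme1 and Psme2 form its activator, Tapbp loads peptide on MHC class I, and Gbp2 and Gbp2b are guanylate-binding GTPases that interferon gamma induces. Igfbp3 binds insulin-like growth factors, and T is the streak factor used as a gate above. Gbp2 thus varied with the set within the libraries at 0 to 12 ng/ml (0.21, 0.32, 0.34 and 0.46), although its level was highest with FGFRi, where the correlation was 0.04.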

How the data were processed

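Single-cell RNA libraries of 5 conditions were made with the 10x 3′ v3.1 kit. The authors aligned reads to mm10 (GENCODE vM23) and deposited raw UMI counts per gene and barcode, without normalization and before filtering of cells. The matrix headers name Cell Ranger 5.0.1, and the methods an earlier version. The authors' limits on cells (2500 genes, 10% mitochondrial UMIs) were applied here. CPM was the sum of UMIs of a gene over that of all kept cells of a library. Counting intervals were exact (Poisson for levels, conditional binomial for ratios, Clopper-Pearson for shares) at 95%. The 95% interval of a median was taken between ordered values of the genes (exact binomial) and is no counting interval. Each condition has 1 library, so conditions were compared without a test and cells did not serve as replicates. Genes above a mean of 5 CPM were counted by a CPM ratio of 2, and medians used a pseudocount of 1 CPM.

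For co-detection, cells were thinned to 10000 UMIs (random seed 1). Core genes were 13 members fixed as type I targets. The 33 genes, the other lists, the gates and the tests were chosen with earlier results of these data known. All 33 were named, with the ligands, receptors, 7 further pathway and antigen presentation genes (1 of these is not reported here), the 5 best-counted other interferon-stimulated genes and the 10 outside genes of highest correlation. Of 50 other interferon-stimulated genes listed, 47 were in the files. Gene positions came from GENCODE vM21 and promoters from RefSeq, both GRCm38. In 25 of the 27 promoters, bases after the start matched a vM21 transcript of the gene on the same strand. Steps were tested on simulated data. Python 3.11.15, NumPy 2.4.6, SciPy 1.17.1, pandas 2.3.3, Matplotlib 3.10.9 and edgeR 4.0.16 (R 4.3.3, scaling factors only) were used. Alternatives covered the cells kept, scaling, pseudocount, minimum level, ratio and thinning depth.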

Additional observations from a re-analysis of the deposited data

How the results depend on the processing

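All 45 alternative medians (5 comparisons under 9 settings) stayed within the interval of the reported median. That interval describes the spread between the 15 genes, not counting error. Counts of genes past 2-fold were small, and no setting gave a count in the opposite direction except as stated here. With a ratio of at least 1.5, 3 genes were higher and 1 lower at 0 ng/ml FGF2 than with FGFRi, and 4, 4 and 2 were higher at the steps to 0.75, 3 and 12 ng/ml. With a mean of at least 1 CPM (26 genes) the counts higher were 3, 2, 5 and 1 over these comparisons and 15 from 0 to 12 ng/ml. With at least 20 CPM (6 genes) 1 was higher from 0.75 to 3 ng/ml and 1 from 0 to 12 ng/ml. Shares of all genes were taken only at the minimum of 5 CPM. The counts at 1 and 20 CPM therefore cannot be set beside all genes. Thinned to 5000 UMIs, the variance ratio of genes detected per cell was 1.11 with FGFRi and 1.33, 1.49, 1.67 and 1.74 along the doses, and without thinning it was 1.95, 2.54, 2.94, 3.55 and 3.58. The share of cells with 3 or more core genes at 5000 UMIs was 0.0588% with FGFRi and 0.236%, 0.183%, 0.659% and 1.04% along the doses, so that the order of 0 and 0.75 ng/ml (4 and 5 cells) turned, and without thinning it was 0.823% with FGFRi and 2.12%, 3.05%, 6.54% and 8.85% along the doses, since fewer or more UMIs were counted. The following settings were chosen after the data were seen. The ratio between cells with and without a T UMI for the 30 genes other than Ifitm, 1.59 with FGFRi and 1.37, 1.80, 1.95 and 1.82 along the doses, was 1.74, 1.65 and 1.56 at 0.75, 3 and 12 ng/ml when thinned. With at most 5% mitochondrial UMIs it was 1.23 with FGFRi and 1.48, 2.05 and 1.92 at 0, 3 and 12 ng/ml, and without the deepest 10% of cells it was 1.71 at 12 ng/ml. For Isg15 with FGFRi the ratio of 9.16 was 2.93 with at most 5% mitochondrial UMIs and 3.36 without the deepest cells. For Isg15 at 3 ng/ml the ratio of 6.96 was 3.48 when thinned, and at 0.75 ng/ml that of 5.45 was 7.14 when thinned and 7.33 without the deepest cells. The causes were not tested. No paired analysis was possible because each condition has 1 library. No replicate could be left out for the same reason. At these depths, Trim25, Oas1a and Rsad2 were too sparse for a difference to be judged, although the interval of Rsad2 between FGFRi and 0 ng/ml lay below 1.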

Other observations

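Further interferon-stimulated genes outside the set, named after their values were seen, fell into both orders along the conditions. Isg20, an RNA exonuclease, was at 0.460 CPM with FGFRi and at 0.880, 1.90, 3.33 and 4.49 CPM from 0 to 12 ng/ml FGF2. Tor3a was at 0.669 CPM with FGFRi and at 2.85, 5.16, 6.21 and 6.84 CPM along the doses, and Irgm2, a relative of Irgm1, at 0.188 CPM with FGFRi and at 0.422, 1.08, 1.81 and 2.73 CPM. Ifi203 and Ifi204, neighbors whose proteins bind DNA, were highest with FGFRi. Ifi203 was at 2.05 CPM there and at 0.933, 0.172, 0.0155 and 0.0565 CPM along the doses, and Ifi204 was at 1.28 CPM with FGFRi and had 0 UMIs at 12 ng/ml. These genes are close copies, and reads could have been split between them.

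The immunoproteasome and the MHC class I genes, which interferon gamma induces together in many cells, separated along the FGF2 doses. Psmb8, Psmb9, Psmb10, Psme1, Psme2, Tap1, Tap2 and Tapbp were higher at each of the 3 dose steps, 8 of the 12 genes listed. Of the 9 listed genes above 5 CPM, 6 were higher at each step, against 16.2% of all 9741 genes. The FGFRi library did not divide the list in this way. Only 2 of the 9, Psmb8 and Psmb10, were higher at 0 ng/ml than with FGFRi (52.4% of all genes). The highest library was that with FGFRi for 5 of the 9 and that at 12 ng/ml for 4 (22.2% of all genes). Psmb10 was at 19.5 CPM with FGFRi and at 35.5, 58.9, 86.2 and 92.8 CPM along the doses. The heavy chain H2-D1 was at 41.9 CPM with FGFRi and at 39.1, 34.0, 27.1 and 26.3 CPM along the doses. H2-K1 was at 46.3 CPM with FGFRi and between 28.7 and 34.3 CPM along the doses, and Nlrc5, the transactivator of MHC class I genes, was at 0.0880 CPM or less in each library.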
